A study of Mus musculus with 6 samples.

Results

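The p53 pathway was followed through 10 genes: Trp53, which encodes p53, its inhibitors Mdm2 and Mdm4, and the p53 targets Cdkn1a, Ccng1, Sesn1, Fas, Rrm2b, Phlda3 and Zmat3. These genes, and the gene lists used below, were chosen by name with earlier results of these data known. They were matched to the gene names of the deposited count table. All 10 were found among its 29626 genes, and all 10 were among the 15353 genes with enough reads to be tested. p53 is a transcription factor that is held low by MDM2, a ubiquitin ligase, and by its relative MDM4. DNA damage and other stresses release it, and it then raises genes for cell cycle arrest, DNA repair, metabolic control and cell death, and raises Mdm2 itself, which closes a feedback loop. In thymocytes p53 is best known for the death of cells that fail to repair broken DNA, including breaks made during T cell receptor gene rearrangement.

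RNA was measured in sorted CD4+CD8+ double-positive thymocytes of mice aged 8 weeks, without stimulation in culture. The control group was 3 Kansl1fl/fl mice, which carry the floxed gene and no Cre, and the KANSL1-deficient group was 3 Kansl1fl/fl CD4-Cre littermates. KANSL1 belongs to the NSL complex together with the acetyltransferase KAT8, and p53 is among the proteins that KAT8 is known to acetylate. Both groups carry the floxed gene, the labels call the controls WT, and Cre is present in 1 group only, so effects of Cre and of Kansl1 loss cannot be told apart. The CD4-Cre transgene acts in T lineage cells that express CD4. The labels number the mice within each group and do not tie equal numbers to 1 litter or day.

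Library totals lay between 19361968 and 22459830 counts. CPM are counts relative to library size, after scaling of the libraries by the trimmed mean of M values (TMM), and FPKM are the authors' values per kilobase of gene. Kansl1 was read at 189 to 230 CPM in the control and 146 to 188 CPM in the KANSL1-deficient libraries, and the log2 fold change of -0.33 ± 0.14 (SE) was not past the threshold (quasi-likelihood test of edgeR, Benjamini-Hochberg adjusted p = 0.171). The counts are per gene, so reads from any exons that remain would be among them. The extent of deletion was not tested. The defining transcripts Cd4, Cd8a and Rag1 were abundant, with means of 2024, 2108 and 3030 CPM in controls. Of 45 markers of gamma-delta T, NK, B, myeloid, erythroid and epithelial cells that the table holds, 23 could be tested and 0 passed with edgeR (3 had an unadjusted p under 0.05, and DESeq2 called 1). Of 5 tested CD4 single-positive markers, Gata3 alone passed as higher with edgeR, and DESeq2 called 1 higher. Changes were positive for 3 and negative for 2, and 2 of the positive ones had an unadjusted p under 0.05. Zbtb7b, which defines that lineage, had 0 reads in the controls and 1 in the KANSL1-deficient libraries. Cd40lg, another listed marker of it, had 0 reads in the controls and 20 in the KANSL1-deficient libraries. Of 6 tested regulatory T cell markers, Ikzf2 rose from 121 ± 13.9 to 202 ± 8.79 CPM (SD, n = 3 each; edgeR, adjusted p = 0.00829). Ctla4 went from 46.4 ± 7.26 to 69.8 ± 18.7 CPM (SD, n = 3 each; edgeR, adjusted p = 0.112). Changes were positive for 3 of these markers and negative for 3, and 2 of the positive ones had an unadjusted p under 0.05. DESeq2 called 2 higher and 0 lower. Foxp3 had 3 reads in the controls and 1 in the KANSL1-deficient libraries. Of 3 tested CD8 single-positive markers, 0 passed with edgeR, and 2 had negative changes with an unadjusted p under 0.05 and were called lower by DESeq2. These were Runx3 (25.9 ± 2.17 to 16.1 ± 1.26 CPM; SD, n = 3 each; edgeR, adjusted p = 0.0522) and Itgae (1.92 ± 0.749 to 0.394 ± 0.276 CPM; SD, n = 3 each; edgeR, adjusted p = 0.0900). Gata3, Cd40lg, Ikzf2, Ctla4, Runx3 and Itgae are named because of their values. The part of other T cell stages in the changes of the p53 genes was not tested. Mitochondrially encoded genes took 2.43% to 3.20% of counts in the controls and 2.52% to 2.82% in the KANSL1-deficient libraries.

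All 30 listed mitosis genes passed as higher (edgeR), beside 3.85% of all tested genes, and their summed level was 448 to 760 CPM in the control and 1701 to 1963 CPM in the KANSL1-deficient libraries. Of 24 listed genes of G1/S and replication, 16 passed as higher. In bulk RNA, fewer cells of a type and less RNA per cell, or more of either, cannot be told apart.

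The p53 protein binds a response element made of a pair of 10-base sites. RefSeq promoter windows of 300 bases (250 before to 50 after each start, build GRCm38.p6) were matched by symbol for 8 of the 10 genes, with 11 start sites. They were searched for a p53 response element, a pair of sites with a spacer of 0 or 1 base in which both sites keep the central C and G. The element reads the same on both strands. With at most 1 mismatch it was found in 36 of 32851 promoter windows of all genes (0.11%), and with at most 3 mismatches in 928 (2.83%). The 4 windows shown were chosen because they hold the closest matches, with the matched 20 bases in capitals. Ccng1 (chr11:40755237-40755536, minus strand) and the upstream start of Cdkn1a (chr17:29090729-29091028, plus strand) matched with 1 mismatch. Trp53 (chr11:69580109-69580408, plus strand) and the second listed start of Sesn1 (chr10:41887189-41887488, plus strand) matched with 3 mismatches.
Ccng1: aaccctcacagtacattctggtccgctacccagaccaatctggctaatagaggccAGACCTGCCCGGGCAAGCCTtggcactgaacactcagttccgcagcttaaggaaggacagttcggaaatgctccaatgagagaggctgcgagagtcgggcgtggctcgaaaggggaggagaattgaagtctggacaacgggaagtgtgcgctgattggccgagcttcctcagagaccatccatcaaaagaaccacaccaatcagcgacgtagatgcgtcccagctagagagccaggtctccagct
Cdkn1a: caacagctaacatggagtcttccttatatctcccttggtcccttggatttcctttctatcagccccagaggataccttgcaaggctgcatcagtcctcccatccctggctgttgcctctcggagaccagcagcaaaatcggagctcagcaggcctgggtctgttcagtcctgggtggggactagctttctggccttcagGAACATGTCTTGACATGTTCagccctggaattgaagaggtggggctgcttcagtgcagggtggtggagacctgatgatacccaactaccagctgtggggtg
Trp53: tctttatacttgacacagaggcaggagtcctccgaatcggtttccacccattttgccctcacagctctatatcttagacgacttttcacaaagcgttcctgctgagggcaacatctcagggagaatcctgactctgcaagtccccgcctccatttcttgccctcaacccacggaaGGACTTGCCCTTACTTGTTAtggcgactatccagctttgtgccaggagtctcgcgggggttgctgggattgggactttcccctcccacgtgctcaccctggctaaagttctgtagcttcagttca
Sesn1: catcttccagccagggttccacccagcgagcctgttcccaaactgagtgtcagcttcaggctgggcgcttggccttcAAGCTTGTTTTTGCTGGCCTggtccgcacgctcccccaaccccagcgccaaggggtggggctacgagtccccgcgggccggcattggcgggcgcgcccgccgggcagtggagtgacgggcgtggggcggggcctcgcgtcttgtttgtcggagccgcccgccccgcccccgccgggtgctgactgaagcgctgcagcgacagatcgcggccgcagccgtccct

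The element of Ccng1, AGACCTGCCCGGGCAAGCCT, began 195 bases before the start site. That of Cdkn1a, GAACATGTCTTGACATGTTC, began 51 bases before its upstream start. The Mdm2 window held a single 10-base site without mismatch, GAACTTGCCT, and at least 1 such site was found in 8.36% of all windows. No pair with at most 3 mismatches was found in the windows of Mdm2, Mdm4, Fas or Phlda3, in that of the other Sesn1 start, or in that of the other Cdkn1a start. A match describes these letters only, and elements outside the windows were not searched.

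Among the 10 genes, Sesn1, Ccng1 and Fas rose in the KANSL1-deficient cells and none fell (edgeR, p under 0.05 after Benjamini-Hochberg adjustment over all tested genes). Over all tested genes 6.76% passed, 3.85% as higher and 2.91% as lower. Unadjusted p under 0.05 was reached by 5 of the 10 genes, all with positive changes. The share of all tested genes at that cut-off was not computed, so this count and those of the lists lack a background. DESeq2 called 4 higher and 0 lower, where it called 14.2% of all its genes in either direction. The groups did not overlap for 4 of the 10, all higher, beside 14.6% higher and 14% lower of all tested genes. The log2 fold change was positive for 9 of the 10 genes, with a median of 0.42. Over all tested genes 48.2% were positive, with a median of -0.02. The count of genes that rose was 2 with any 1 library left out other than KANSL1-deficient replicate 3, without which it was 3. Sesn1 and Ccng1 passed under all 16 alternatives tried.

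**Figure D1:**
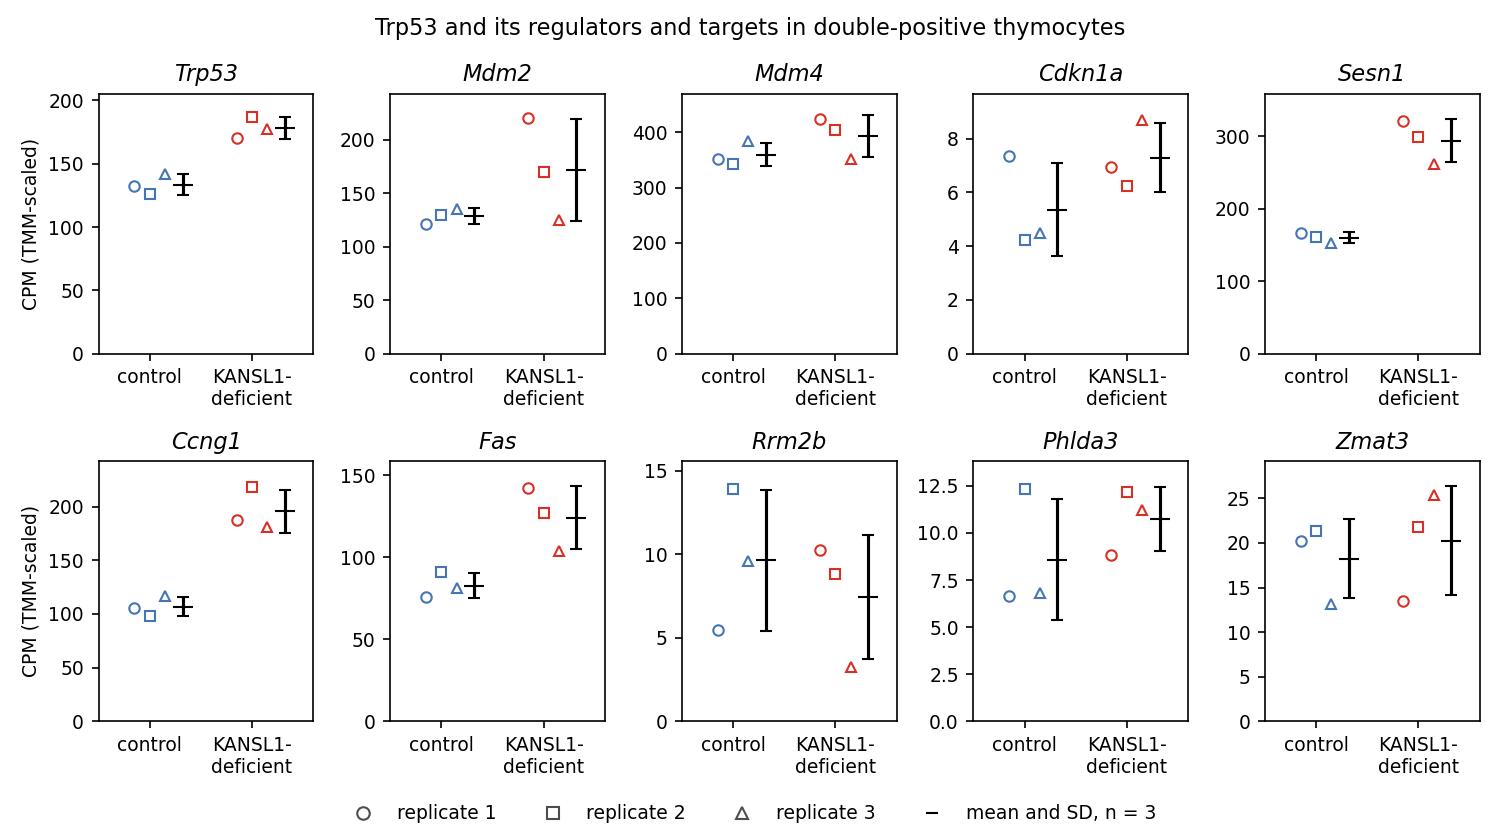
TMM-scaled CPM (vertical axes, starting at 0) of the 10 genes in the 3 control and 3 KANSL1-deficient libraries, with a symbol for each replicate number and the mean with its SD in black. Trp53, Sesn1, Ccng1 and Fas have no overlap between the groups, whereas the other 6 genes overlap.

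Trp53 (ENSMUSG00000059552, GRCm39 chromosome 11, 69471185 to 69482699, plus strand) was read at 132, 126 and 142 CPM in control replicates 1 to 3 and at 170, 187 and 178 CPM in KANSL1-deficient replicates 1 to 3. All KANSL1-deficient libraries lay above all controls, and the spread within each group was small (SD 8.06 and 8.63 CPM, n = 3 each). The fold change was 1.33 (log2 0.42 ± 0.12, SE), just short of the threshold (edgeR, Benjamini-Hochberg adjusted p = 0.0585). DESeq2 called Trp53 higher (adjusted p = 0.0186), and so did edgeR when genes needed 5 CPM in 3 libraries (adjusted p = 0.0460). The log2 fold change was 0.27 with library totals, and the adjusted p lay between 0.0186 and 0.217 over the alternatives. The p53 relatives Trp63 and Trp73 were too scarce to be tested, with means of 0 CPM in controls and 0.0820 and 0.0157 CPM in the KANSL1-deficient group.

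Mdm2 (ENSMUSG00000020184, chromosome 10, 117524780 to 117546663, minus strand), the main ligase for p53 and a p53 target, was read at 121, 130 and 135 CPM in the controls. In the KANSL1-deficient libraries it was read at 220, 170 and 125 CPM. Replicates 1 and 2 lay above the control range and replicate 3 within it, and the SD was 47.7 CPM against 7.24 CPM in controls. The log2 fold change of 0.42 ± 0.18 (SE) had the same size as that of Trp53 and did not pass (edgeR, adjusted p = 0.192). It was 0.61 without KANSL1-deficient replicate 3, 0.26 with library totals and 0.20 without KANSL1-deficient replicate 1, and it passed in none of these.

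Mdm4 (ENSMUSG00000054387, chromosome 1, 132887222 to 132958299, minus strand), which inhibits p53 without degrading it, was read at 352, 343 and 384 CPM in controls and at 424, 403 and 351 CPM in KANSL1-deficient libraries. The groups overlapped through KANSL1-deficient replicate 3. Its log2 fold change was 0.13 ± 0.12 (SE; edgeR, adjusted p = 0.596), and with library totals in place of TMM it was -0.02. Per length, Mdm4 and Mdm2 stood nearly level in controls, with Mdm4 FPKM over Mdm2 FPKM at 1.00, 0.908 and 0.975. In the KANSL1-deficient libraries this ratio, which does not depend on library scaling, was 0.661, 0.813 and 0.966.

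Cdkn1a (ENSMUSG00000023067, chromosome 17, 29309950 to 29319701, plus strand) encodes p21, the cyclin-dependent kinase inhibitor through which p53 arrests the cell cycle. It was scarce: 152, 96 and 102 reads in controls and 141, 132 and 174 in KANSL1-deficient libraries. These are 7.35, 4.23 and 4.49 CPM against 6.94, 6.22 and 8.71 CPM. Control replicate 1 lay above KANSL1-deficient replicates 1 and 2. The log2 fold change of 0.45 ± 0.33 (SE) was within the spread between libraries (edgeR, adjusted p = 0.480). It was 0.73 without control replicate 1, 0.28 without control replicate 2 and 0.29 with library totals. Cdkn1b, which encodes the related inhibitor p27, was far more abundant and rose from 202 ± 20.6 to 293 ± 38.5 CPM (SD, n = 3 each; log2 fold change 0.53, edgeR adjusted p = 0.0373). Its call was lost whichever library was left out.

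Ccng1 (ENSMUSG00000020326, chromosome 11, 40639379 to 40646138, minus strand) encodes cyclin G1, which recruits a phosphatase that acts on MDM2. It was read at 105, 98.5 and 117 CPM in controls and at 187, 219 and 181 CPM in KANSL1-deficient libraries. Every KANSL1-deficient library was above every control by a wide margin. The fold change was 1.83 (log2 0.87 ± 0.13, SE; edgeR, adjusted p = 0.00529). With 1 library left out the log2 fold change stayed between 0.79 and 0.93. Ccng1 and Mdm2 did not move by the same amount in each library. Ccng1 FPKM over Mdm2 FPKM was 1.26, 1.10 and 1.25 in controls and 1.23, 1.86 and 2.10 in KANSL1-deficient replicates 1 to 3. Ccng2, a relative of Ccng1, was at 0.52 on the log2 scale (edgeR, adjusted p = 0.192).

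Sesn1 (ENSMUSG00000038332, chromosome 10, 41685931 to 41784420, plus strand) encodes sestrin 1, a stress protein that restrains mTORC1 signalling. It was read at 167, 161 and 153 CPM in controls and at 321, 299 and 262 CPM in KANSL1-deficient libraries. The control values were tight (SD 7.11 CPM), and the lowest KANSL1-deficient library was well above the highest control. The fold change was 1.84 (log2 0.88 ± 0.12, SE; edgeR, adjusted p = 0.00406), the largest of the 10. Sesn3 rose from 16.3 ± 1.58 to 28.0 ± 4.06 CPM (SD, n = 3 each; edgeR, adjusted p = 0.0376), a call lost whichever library was left out. Sesn2 had a log2 fold change of 0.44 ± 0.21 (SE; edgeR, adjusted p = 0.248).

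Fas (ENSMUSG00000024778, chromosome 19, 34268066 to 34305172, plus strand) encodes the death receptor CD95. It was read at 75.6, 90.8 and 81.5 CPM in controls and at 142, 127 and 104 CPM in KANSL1-deficient libraries. The groups did not overlap, with KANSL1-deficient replicate 3 nearest to the controls. The log2 fold change was 0.59 ± 0.15 (SE; edgeR, adjusted p = 0.0392). This call was lost with library totals (adjusted p = 0.0833), with log2 FPKM, with a replicate block and after removal of the abundance trend. It was also lost without any 1 library other than KANSL1-deficient replicate 3. Over all alternatives the log2 fold change lay between 0.42 and 0.71 and the adjusted p between 0.00483 and 0.169. Downstream of Fas, the initiator caspase gene Casp8 had a log2 fold change of 0.45 (edgeR, adjusted p = 0.0507) and the adaptor gene Fadd one of -0.17 (adjusted p = 0.735).

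Rrm2b (ENSMUSG00000022292, chromosome 15, 37924196 to 37961562, minus strand) encodes p53R2, the ribonucleotide reductase subunit that supplies nucleotides outside S phase. It was the sole member with a negative change: 5.47, 13.9 and 9.59 CPM in controls and 10.3, 8.81 and 3.25 CPM in KANSL1-deficient libraries. The values were scattered in both groups, and the log2 fold change of -0.37 ± 0.43 (SE) did not pass (edgeR, adjusted p = 0.683). Single libraries set its size: it was -0.01 without KANSL1-deficient replicate 3, -0.04 without control replicate 2, and -0.67 when replicate 1 of either group was left out. The subunit genes used in S phase did pass: Rrm1 rose from 97.3 ± 30.0 to 220 ± 14.1 CPM and Rrm2 from 27.8 ± 11.2 to 81.4 ± 4.28 CPM (SD, n = 3 each; edgeR, adjusted p = 0.00728 and 0.00532).

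Phlda3 (ENSMUSG00000041801, chromosome 1, 135693857 to 135696874, plus strand), which blocks AKT at the membrane, was read at 6.63, 12.3 and 6.82 CPM in controls and at 8.85, 12.2 and 11.2 CPM in KANSL1-deficient libraries. The groups overlapped because control replicate 2 was as high as the KANSL1-deficient libraries (log2 fold change 0.32 ± 0.31, SE; edgeR, adjusted p = 0.600). It was 0.66 without control replicate 2, and 0.16 and 0.17 without control replicates 1 and 3. Zmat3 (ENSMUSG00000027663, chromosome 3, 32388941 to 32420163, minus strand), an RNA-binding protein that acts in splicing, was read at 20.2, 21.3 and 13.2 CPM in controls and at 13.5, 21.8 and 25.4 CPM in KANSL1-deficient libraries. Its groups overlapped across nearly the whole range (log2 fold change 0.15 ± 0.27, SE; edgeR, adjusted p = 0.819; -0.04 without control replicate 3).

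**Figure D2:**
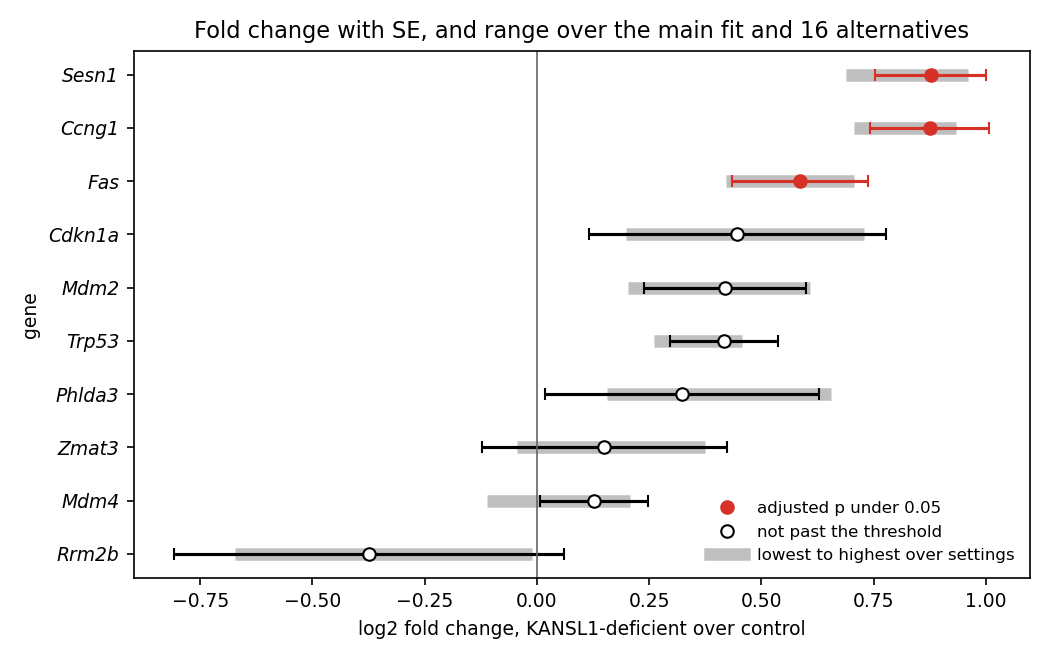
Log2 fold change of the 10 genes (horizontal axis, KANSL1-deficient over control; points with SE bars), with red points for adjusted p under 0.05 and grey bars from the lowest to the highest value over the main fit and 16 alternatives. Sesn1 and Ccng1 lie near 0.88 and 0.87, and the grey bars of Mdm4 and Zmat3 cross 0.

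The order of the KANSL1-deficient libraries was shared by some members. Mdm2, Mdm4, Sesn1, Fas and Rrm2b, 5 of the 10, were highest in replicate 1, lower in replicate 2 and lowest in replicate 3. Replicate 3 had the lowest value of its group for 6 members (Mdm2, Mdm4, Sesn1, Ccng1, Fas and Rrm2b) and the highest for 2 (Cdkn1a and Zmat3). Rrm2b rests on few reads, 209, 187 and 65 in KANSL1-deficient replicates 1 to 3. The shares of all tested genes with this order, or lowest in replicate 3, were not computed, so these counts lack a background. Relative to the control mean, Mdm2 stood at 1.71, 1.32 and 0.971 in KANSL1-deficient replicates 1 to 3, and Fas at 1.72, 1.53 and 1.25. Cdkn1a stood at 1.30, 1.16 and 1.63 and Zmat3 at 0.738, 1.20 and 1.39. Trp53 was even, at 1.27, 1.40 and 1.33. The summed level of the mitosis genes did not share this order and was highest in KANSL1-deficient replicate 3 (1963 CPM, against 1701 and 1871 CPM in replicates 1 and 2). The part of dividing cells in the changes of these genes was not tested.

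**Figure D3:**
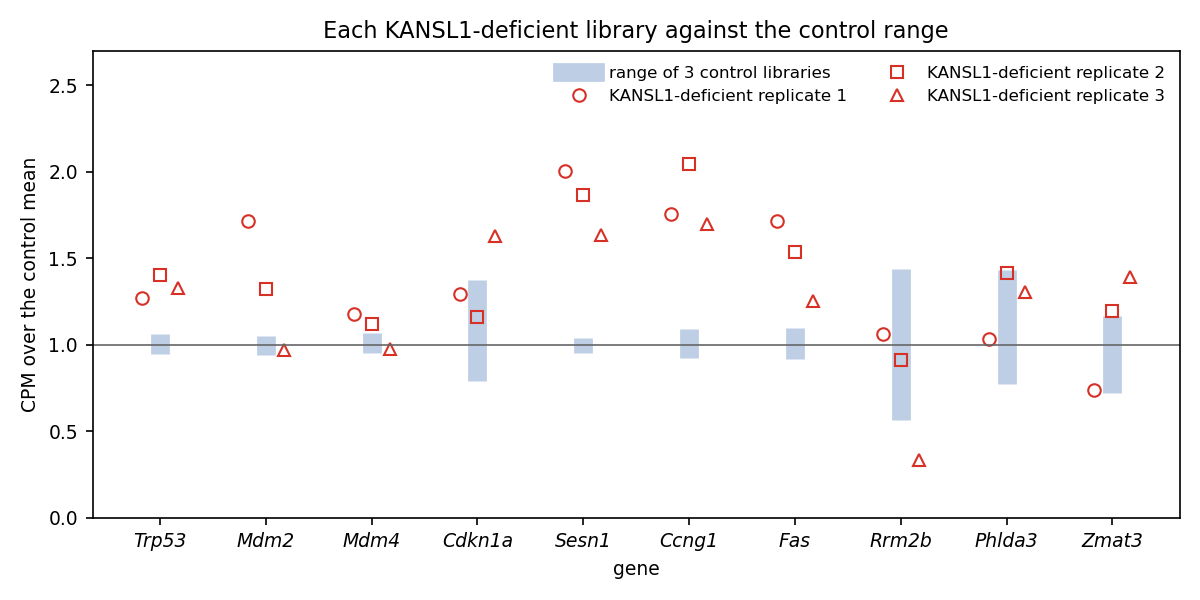
CPM of each KANSL1-deficient library divided by the control mean (vertical axis), with a symbol for each replicate and the range of the 3 controls as a blue bar. Sesn1 and Ccng1 lie between 1.64 and 2.05 in every KANSL1-deficient library, whereas Mdm2 runs from 1.71 in replicate 1 to 0.971 in replicate 3.

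The authors' deposited table gives adjusted p = 1.35e-08 for Sesn1, 2.55e-07 for Ccng1, 0.00466 for Fas and 0.0179 for Trp53. It marks a gene only where it also changed at least 2-fold, and the authors' deposited table marks none of the 10, whose largest fold change there is 1.84. The other 6 genes have adjusted p between 0.120 and 0.803 in the authors' deposited table.

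Per length, the members fell into a high and a low class. In controls the mean FPKM was 42.3 for Sesn1, 42.1 for Fas, 34.7 for Trp53, 32.0 for Ccng1, 26.6 for Mdm2 and 25.6 for Mdm4. The other genes were far lower, at 5.77 FPKM for Phlda3, 1.68 for Zmat3, 1.59 for Cdkn1a and 1.11 for Rrm2b. The ranges of the neighbours Sesn1 and Fas overlapped, as did those of Trp53 and Ccng1, of Mdm2 and Mdm4, and of Zmat3, Cdkn1a and Rrm2b in turn. In KANSL1-deficient cells Ccng1 (52.8 FPKM) stood above Trp53 (41.8 FPKM) without overlap. Mdm2 FPKM over Trp53 FPKM was 0.727, 0.818 and 0.758 in controls and 1.03, 0.724 and 0.560 in KANSL1-deficient replicates 1 to 3. Sesn1 FPKM over Mdm2 FPKM was 1.76, 1.58 and 1.44 in controls and 1.86, 2.24 and 2.67 in KANSL1-deficient libraries.

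The wider pathway was read from 86 listed p53 targets, of which 83 were in the table and 74 were tested. The list was made with earlier results of these data known. With edgeR 12 targets rose, which is 16.2% of those tested beside 3.85% of all tested genes, and 0 fell. Those that rose include Ckap2, which is also in the mitosis list, the spindle gene Psrc1 and the replicative polymerase gene Pold1. The share without cell cycle genes was not computed, and the part of dividing cells was not tested. Unadjusted p under 0.05 was reached by 28 targets with positive and 5 with negative changes. DESeq2 called 20 higher and 3 lower, and 14.2% of all its genes in either direction. The median log2 fold change was 0.30, beside -0.02 for all tested genes. Without the 10 members, 9 of 66 tested targets rose and the median was 0.20. The count of 12 was 6 with library totals and between 4 and 9 with 1 library left out: 4 without control replicate 2 or KANSL1-deficient replicate 2, 5 without KANSL1-deficient replicate 1, 7 without control replicate 3 and 8 without KANSL1-deficient replicate 3. Sesn1, Ccng1, Ckap2 and Tnfaip8 passed under all 16 alternatives, and each of the other 8 lost its call without at least 1 library.

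In the feedback group, 2 of 9 tested genes rose (22.2%, beside 3.85% of all tested genes), Ccng1 and Trp53inp1. Trp53inp1, which encodes a p53-induced nuclear protein, went from 407 ± 94.6 to 631 ± 81.1 CPM (SD, n = 3 each; edgeR, adjusted p = 0.0439). Rchy1, another p53 ligase gene, had a log2 fold change of 0.04, and -0.11 with library totals. In the arrest group 2 of 10 rose (20%, beside 3.85% of all tested genes). They were Ckap2 (9.41 ± 0.874 to 25.1 ± 1.63 CPM) and Psrc1 (3.99 ± 2.09 to 10.5 ± 1.64 CPM; SD, n = 3 each). Both encode spindle proteins, and Ckap2 is also in the mitosis list, whose 30 genes all rose. Btg2, an antiproliferative gene and the most abundant of the group, had a log2 fold change of 0.36 ± 0.13 (SE; edgeR, adjusted p = 0.109), which was 0.21 with library totals and 0.05 with the abundance trend removed.

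In the death group 2 of 16 tested genes rose (12.5%, beside 3.85% of all tested genes), Fas and Apaf1. Apaf1, which encodes the scaffold of the apoptosome, was read at 40.9, 39.6 and 47.5 CPM in controls and at 70.2, 73.4 and 68.8 CPM in KANSL1-deficient libraries (edgeR, adjusted p = 0.0155). The groups did not overlap, in either direction, for 10 of the 16 (62.5%). The share was 51.4% over all tested p53 targets and 28.5% over all tested genes. Pmaip1, which encodes NOXA, had a log2 fold change of 0.68 ± 0.20 (SE; edgeR, adjusted p = 0.0578). Bbc3, which encodes PUMA and was singled out after its values were seen, had one of 0.61 ± 0.22 (SE; edgeR, adjusted p = 0.118). Bax, the pore-forming effector, had a negative value of -0.38 ± 0.18 (SE; edgeR, adjusted p = 0.225), and Triap1, an inhibitor of the apoptosome, one of -0.60 ± 0.19 (SE; edgeR, adjusted p = 0.0788). Without control replicate 2 these were -0.23 and -0.34. Trp53i11 was the most abundant gene of the group, with a log2 fold change of 0.29 (edgeR, adjusted p = 0.153), which was 0.13 with library totals and 0.01 with the abundance trend removed.

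In the repair and nucleotide group 1 of 10 rose (10%, beside 3.85% of all tested genes). This was Pold1, the catalytic subunit of the replicative polymerase delta (30.2 ± 2.23 to 50.6 ± 12.8 CPM; SD, n = 3 each; edgeR, adjusted p = 0.0459). Mgmt, which removes alkyl groups from guanine and was singled out after its values were seen, went from 11.5 ± 0.762 to 5.99 ± 1.19 CPM (SD, n = 3 each; edgeR, adjusted p = 0.0585). DESeq2 and limma-voom called Mgmt lower (adjusted p = 0.0179 and 0.0498).

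In the metabolism and stress group 1 of 16 tested genes rose, Sesn1 (6.25%, near the 3.85% of all tested genes). The median log2 fold change was negative (-0.12). Tigar, a regulator of glycolysis singled out after its values were seen, went from 6.10 ± 3.59 to 1.54 ± 0.974 CPM (SD, n = 3 each; edgeR, adjusted p = 0.0578), and DESeq2 called it lower (adjusted p = 0.00836). Prkab1, a subunit of AMP-activated kinase, had a log2 fold change of -0.22 (edgeR, adjusted p = 0.418). Of 13 tested targets with other roles, 4 rose (30.8%, beside 3.85% of all tested genes). They were Tnfaip8, Crip2, the transcription factor gene Sp1 and the peptide transporter gene Tap1. Tnfaip8 was read at 82.0, 78.2 and 99.9 CPM in controls and at 163, 180 and 167 CPM in KANSL1-deficient libraries, without overlap (edgeR, adjusted p = 0.00406). Tap2, which encodes the partner of TAP1, had a log2 fold change of 0.34 (edgeR, adjusted p = 0.0866).

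**Figure D4:**
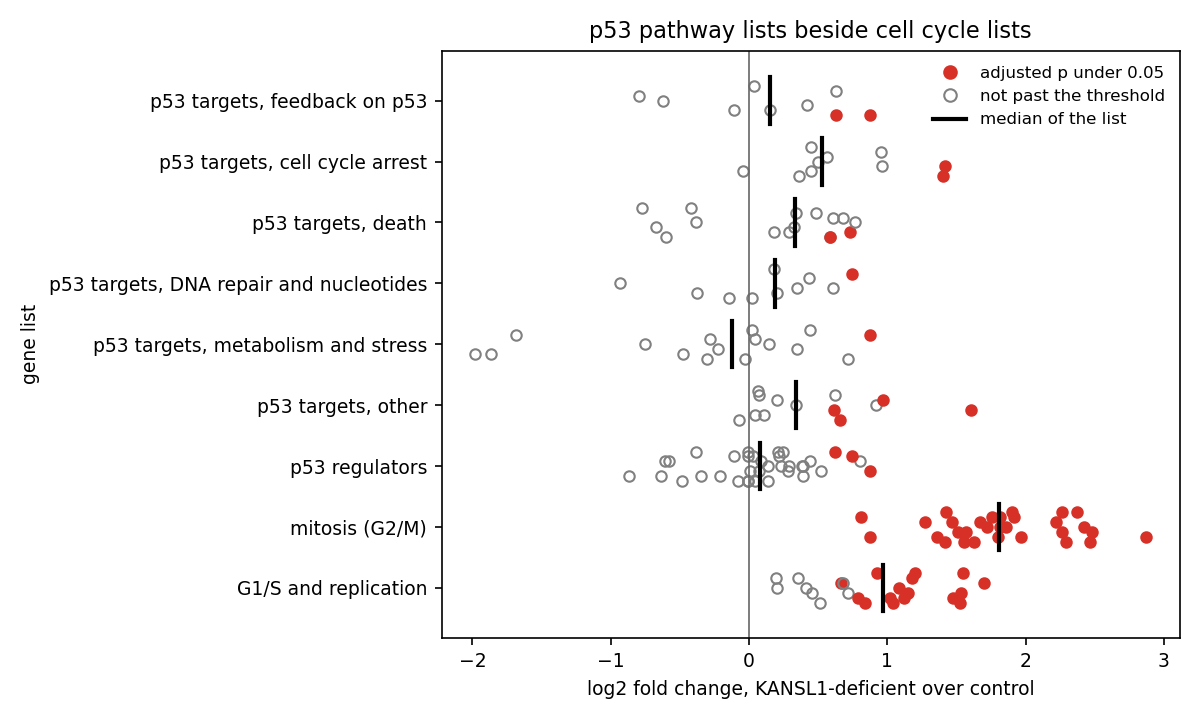
Log2 fold change (horizontal axis) of each tested gene in the p53 target lists by role, the p53 regulators and 2 cell cycle lists, with red points for adjusted p under 0.05 and a black bar at each median. The medians of the p53 target lists lie between -0.12 and 0.53, and those of the cell cycle lists at 1.81 and 0.97.

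Of 36 tested genes whose products act on p53, 3 rose (8.33%, beside 3.85% of all tested genes) and 0 fell with edgeR. Unadjusted p was under 0.05 for 8 positive and 2 negative changes, DESeq2 called 5 higher and 2 lower (14.2% of all its genes in either direction), and the median log2 fold change was 0.08. The 3 were Trp53bp2, which encodes the p53 partner ASPP2 (54.2 ± 10.5 to 90.8 ± 16.2 CPM), Usp10, a ubiquitin protease for p53 (55.0 ± 7.78 to 84.7 ± 4.03 CPM), and Aurka, a mitotic kinase gene that is also in the mitosis list (27.4 ± 8.75 to 50.4 ± 0.939 CPM; SD, n = 3 each). The count was 0 with library totals, without control replicate 1 or 2, and without KANSL1-deficient replicate 1 or 2, 1 without KANSL1-deficient replicate 3 and 2 without control replicate 3. The 2 regulators that DESeq2 called lower, named for that call, were Prkdc (50.2 ± 11.3 to 32.3 ± 2.32 CPM) and Trp53bp1 (34.8 ± 7.59 to 22.9 ± 3.11 CPM; SD, n = 3 each). Their adjusted p was 0.0156 and 0.0462 with DESeq2, and 0.0649 and 0.103 with edgeR. Kat8, the acetyltransferase of the NSL complex, was at 14.2 ± 3.35 and 14.3 ± 3.07 CPM (SD, n = 3 each; log2 fold change 0.01 ± 0.26, SE, and -0.15 with library totals; edgeR, adjusted p = 0.995 and 0.787). Crebbp, an acetyltransferase for p53, had a log2 fold change of 0.14, and -0.01 with library totals.

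Of 20 listed relatives of the members, 16 were tested, 4 rose (Rrm1, Rrm2, Sesn3 and Cdkn1b, above) and 0 fell with edgeR, beside 3.85% of all tested genes higher. Unadjusted p was under 0.05 for 7, all positive, and DESeq2 called 6 higher and 0 lower, beside 14.2% of all its genes in either direction. Among the others, the cyclin I gene Ccni had group means of 164 ± 48.2 and 166 ± 18.1 CPM (SD, n = 3 each), and the sign of its change depended on the library left out. Tnfrsf1a, a death receptor gene like Fas, was at -0.10 and Zmat2 at -0.23 on the log2 scale, both with overlapping groups (edgeR, adjusted p = 0.708 and 0.406). Zmat1 went from 6.28 ± 2.72 to 12.2 ± 2.49 CPM (SD, n = 3 each; edgeR, adjusted p = 0.114). Phlda1 was at 0.20 on the log2 scale (edgeR, adjusted p = 0.778).

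The genes most like 4 members were found as those with the smallest mean absolute difference in centred log2 CPM over the 6 libraries, among 9738 genes of at least 5 CPM. For Trp53 they were Lonp2, Smarcc2 and Atp5b (differences 0.02, 0.03 and 0.03). For Ccng1 they were Sephs1, Ptger4 and Cbx2 (0.03, 0.05 and 0.05), and for Sesn1 Gm9800, Gm4617 and Nup62 (each 0.05). For Cdkn1a they were Fgd6, Zc3h12b and 4833407H14Rik (0.05, 0.07 and 0.07). None of these is in the p53 lists, but listed genes are few among the 9738, so no conclusion is drawn from that.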

How the data were processed

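Polyadenylated RNA of sorted double-positive thymocytes was sequenced, per the labels' protocols. STAR, featureCounts, DESeq2 and the build GRCm39 are named in the submitters' processing notes, and for versions and the use of strand the sources used here give nothing, so reads of overlapping genes can be shared. The authors deposited whole-number counts per gene and FPKM values. Their comparison, per the file headers, holds a mean normalized signal, the ratio of the groups, its log2 value, and a p-value with its adjusted form. Groups came from the sample titles, and no library was left out.

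The counts were tested with the quasi-likelihood test of edgeR 4.0.16 (R 4.3.3) after TMM scaling and edgeR's default low-count filter (minimum count 10, minimum total 15), with robust dispersion and Benjamini-Hochberg adjustment at 0.05 over all tested genes. The SE is the log2 fold change divided by the square root of F. P-values weigh the difference between the groups against the spread between these mice, estimated with moderation across genes. DESeq2 1.42.0, limma 3.58.1 (voom, and log2 of FPKM plus 1 or plus 0.1), other scalings and filters, removal of the abundance trend (lowess, span 0.3), a replicate block and each library left out were alternatives. In counts simulated for this comparison on 14733 genes, the share found was 18 of 67 genes at a 1.5-fold change, 40 of 67 at 2-fold and 66 of 66 at 4-fold, with 12 of 14533 unchanged genes called. The changed genes were drawn from those of at least 5 CPM. They were a smaller share of all genes than the 6.76% called in the data, so the shares found need not apply to the data.

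The members and lists were chosen with earlier results of these data known. Named genes were all members, list genes past the threshold, up to 4 of the most abundant others in a role list, and relatives of the members with at least 5 CPM; 1 listed gene is not reported here. Gene coordinates were copied from the deposited table (GRCm39), and promoter windows are from RefSeq in GRCm38.p6.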

Additional observations from a re-analysis of the deposited data

How the results depend on the processing

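Library totals moved the median log2 fold change of all tested genes by -0.15 and log2 of FPKM plus 0.1 by -0.13, and changes are given relative to TMM. The count of genes called was 1038, and 1729 with no low-count filter, 2009 with DESeq2 and 283 to 811 with 1 library left out. The p53 targets that rose were 12, and 6 with library totals, 20 with DESeq2, 5 with either log2 FPKM and 4 to 9 with 1 library left out. Targets that fell were 0, and 3 with library totals or DESeq2, 2 with no filter or the filter of at least 5 CPM, and 1 with limma-voom or either log2 FPKM; they were among Triap1, Tigar and Mgmt. Regulators that rose were 3, and 5 with DESeq2, 0 with library totals or either log2 FPKM, and 0 to 2 with 1 library left out. Regulators that fell were 0, and 2 with library totals or DESeq2, 1 with no filter or at least 5 CPM, and 0 to 1 with 1 library left out. The members that rose were 2 to 4 over all alternatives, and those that fell 0. The cause of these shifts was not tested.

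Equal replicate numbers did not deviate together (r = -0.05, -0.02 and -0.10 for numbers 1 to 3, across genes), and no KANSL1-deficient library correlated best with the control of its own number. For unequal numbers r lay between -0.03 and 0.07. Deviations were centred within groups of 3 libraries, so these values cannot exclude a shared litter or day. With a replicate block, 406 genes, 4 p53 targets, 0 regulators and 2 members (not Fas, adjusted p = 0.103) were called.

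Changes near 0 changed sign under some alternatives, none of them past the threshold. With library totals, log2 of FPKM plus 1, log2 of FPKM plus 0.1 and the abundance trend removed, the values were -0.025, -0.024, -0.025 and -0.11 for Mdm4, -0.13, -0.095, -0.096 and -0.14 for Ccni, -0.012, -0.0056, -0.0056 and -0.12 for Crebbp, and -0.11, -0.083, -0.085 and -0.035 for Rchy1. Zmat3 was at -0.0053 and -0.016 with the 2 log2 FPKM, and from -0.044 (without control replicate 3) to 0.37 with 1 library left out, being -0.042 without KANSL1-deficient replicate 3. Ccni was at -0.0032 with at least 5 CPM, and at -0.20, -0.011 and -0.043 without control replicate 3 and KANSL1-deficient replicates 1 and 3, with a highest value of 0.20. Rchy1 was at -0.12 and -0.014 without control replicates 1 and 3, and at most 0.23 with 1 library left out. Kat8 was at -0.15 with library totals, -0.0076 with no filter, -0.014 with at least 5 CPM, -0.12 and -0.14 with the 2 log2 FPKM, and -0.16 (without KANSL1-deficient replicate 2) to 0.20 with 1 library left out. Genes near or below 10 CPM, Cdkn1a, Rrm2b and Phlda3 among them, are limited by few reads.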
